A study of Mus musculus with 19 samples.

Results

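Aquaporins are the channel proteins through which water, and for some of them glycerol, crosses cell membranes. The genes described here are Aqp1, Aqp2, Aqp3, Aqp4, Aqp5, Aqp7, Aqp8, Aqp9 and Aqp11, which are 9 of the 49089 genes in the counts. They were chosen by their symbol, matched to the gene identifiers through the GENCODE mouse annotation. The other aquaporin genes with a row in the counts were Mip, Aqp6 and Aqp12. RNA of the endometrium, the inner lining of the uterus, was sequenced in 19 libraries of wild-type C57Bl/6 female mice, aged 8 to 14 weeks where the methods give an age. A set of 3 libraries came from virgin estrous females without treatment, collected around ovulation (CONT). The other 16 came from females killed on day 3.5 post-coitum (pc), before the embryo attaches, in 4 sets of 4 libraries. One set had mated with intact BALB/c males (INT), and the other sets, coded SVX, SVX_VAS and VAS, had mated with BALB/c males after surgery on the vas deferens, the seminal vesicles or both. The labels of these last 3 sets name different surgeries in different places, so each is called by its code and no surgery is assigned to it. The methods give late evening as the collection time at estrus and midday on day 3.5 pc. Time of day thus cannot be told apart from mating and cycle stage in comparisons with estrus. Each library was a pooled sample scraped from the myometrium, how many females went into each is not given in the sources used here, and p-values therefore measure the spread between pools.

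Water channels in the uterus serve the movement of fluid into and out of the lumen. The lumen holds fluid around ovulation, under estrogen, and loses it under progesterone before implantation, when the epithelium closes around the embryo. Aqp1, Aqp2, Aqp4 and Aqp5 are classical water channels, and Aqp3, Aqp7 and Aqp9 also pass glycerol and other small solutes. Aqp8 passes water and further small molecules, and Aqp11 is a distant member of the family that resides mainly in membranes inside the cell. Endothelium and red blood cells are known sites of Aqp1, and secretory epithelia of Aqp5.

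Genes of this family lie next to each other in places on the mouse genome (GRCm38). Aqp2 (chr15:99579056-99584545) and Aqp5 (chr15:99590849-99594829) are neighbours on the plus strand, with Aqp6 (chr15:99601400-99605477) after them. Aqp3 (chr4:41092722-41098183) and Aqp7 (chr4:41033074-41048139) are both on the minus strand of chromosome 4. Aqp8 (chr7:123462291-123468004, plus strand) and Aqp11 (chr7:97724006-97738289, minus strand) share chromosome 7, Aqp1 is at chr6:55336432-55348555 on the plus strand and Aqp9 at chr9:71110659-71168682 on the minus strand. All 9 are protein-coding, and no exon of theirs overlaps an exon of another gene on either strand in GENCODE M21.

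The promoters of 4 of these genes are shown because their transcripts changed in every comparison with estrus, Aqp5 and Aqp8 falling by the most in the first of them and Aqp11 rising. They come from RefSeq (GRCm38.p6) and are given 5′ to 3′ on the gene's strand. For Aqp1 (chr6:55336049-55336298), Aqp8 (chr7:123462044-123462290) and Aqp11 (chr7:97738290-97738497) the stretch ends before the first transcribed base of the gene in the counts or in RefSeq, and for Aqp5 (chr15:99590928-99590952) only the bases around a motif are given. That Aqp5 stretch lies before the start in RefSeq but inside the gene as counted, which begins further upstream. Capitals mark GGTCA, or TGACC on the other strand, the repeated arm of the estrogen response element.
Aqp5: ctgccgcgtgGGTCAcgtggcccgg
Aqp8: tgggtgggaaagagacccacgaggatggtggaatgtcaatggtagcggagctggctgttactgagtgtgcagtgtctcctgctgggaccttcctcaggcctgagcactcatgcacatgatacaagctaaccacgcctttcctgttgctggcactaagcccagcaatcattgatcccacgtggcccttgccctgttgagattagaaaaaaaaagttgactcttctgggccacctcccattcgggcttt
Aqp1: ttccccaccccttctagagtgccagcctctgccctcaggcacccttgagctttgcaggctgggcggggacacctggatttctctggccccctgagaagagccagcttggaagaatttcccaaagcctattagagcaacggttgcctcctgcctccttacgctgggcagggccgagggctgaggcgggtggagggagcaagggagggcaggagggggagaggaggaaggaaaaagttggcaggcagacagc
Aqp11: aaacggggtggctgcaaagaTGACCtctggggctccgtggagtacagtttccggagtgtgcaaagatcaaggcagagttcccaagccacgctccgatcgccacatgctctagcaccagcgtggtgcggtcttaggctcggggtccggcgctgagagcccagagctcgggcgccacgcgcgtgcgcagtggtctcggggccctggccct

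Promoters of 300 bases, 250 before and 50 after the start, were found in RefSeq for 8 of the 9 genes, 10 promoters in all. The arm GGTCA was searched on both strands and was in 5 of the 10, against 40.5% of 32851 mouse promoters. It began 90 bases before the RefSeq start in Aqp5 and 230 bases before it in Aqp11, and the other matches were in Aqp7 and Aqp9. The full estrogen response element, GGTCANNNTGACC, which holds 2 such arms, was in 0 of the 10, against 0.07% of all promoters. The progesterone and glucocorticoid element, GNACANNNTGTNC, was also in 0 of the 10, against 0.475% of all. These matches describe letters in the window and are not binding sites.

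Libraries held 12661266 to 31781270 counts on genes. Levels are CPM, counts scaled to the library total, with edgeR's TMM factors. For a gene with no count, up to 3 counts are not excluded by counting error alone, or 0.107 to 0.234 CPM depending on the library. The labelled tissue was checked against markers: keratins and other epithelial genes summed to 408 to 4102 CPM, stromal genes to 1493 to 7671 CPM and fat genes to at most 1.81 CPM. Smooth muscle genes summed to 254 to 1111 CPM, with the highest sum in INT library 1. VAS libraries 2 and 3 stood apart, with scaling factors of 1.29 and 1.33 against 0.848 to 1.02 in the other 17, and the calls in VAS against estrus were also made without them. Testing required 3 CPM or more in 3 or more libraries and left 17222 genes, a level that Aqp1, Aqp4, Aqp5, Aqp8 and Aqp11 reached. Aqp2, Aqp3, Aqp7 and Aqp9 did not, and are described by their counts. A gene was called when its FDR was 0.05 or less and its change at least 1.5-fold, in edgeR's quasi-likelihood test with all 19 libraries.

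In INT, 3 of the 5 tested aquaporins were lower than at estrus (Aqp1, Aqp5 and Aqp8), 1 was higher (Aqp11) and 1 was not called (Aqp4). Among all genes tested, 20.9% were called higher and 12.7% lower in that comparison. In SVX, 1 aquaporin was called higher and 4 lower, where 23.1% and 18.5% of all genes were called. In SVX_VAS the counts were again 1 higher and 4 lower, where 22.2% and 16.5% of all genes were called. In VAS, 1 was called higher and 3 lower, where 23.3% and 17.3% of all genes were called. Without VAS libraries 2 and 3 it was also 1 higher and 3 lower, with Aqp4 in the place of Aqp1, where 22.1% and 14.2% of all genes were called. The 4 comparisons share the 3 estrus libraries and are not independent of each other.

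**Figure D1:**
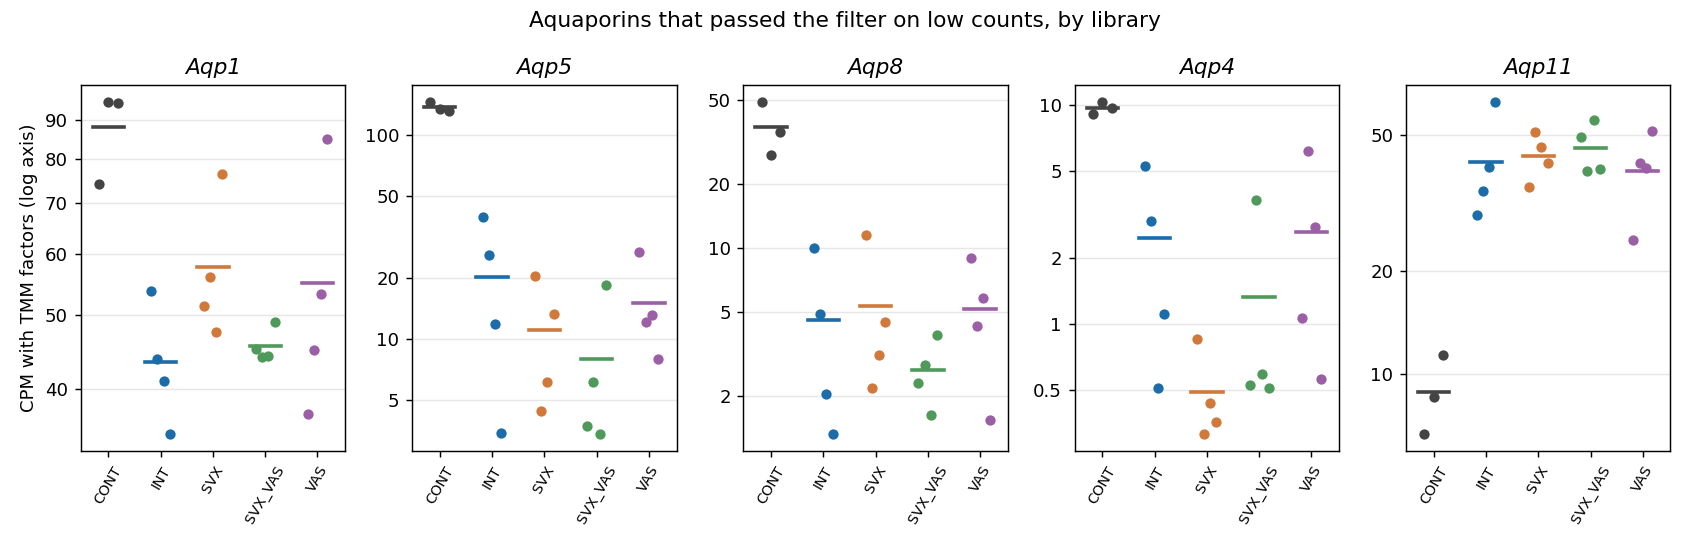
Level of each tested aquaporin in CPM with TMM factors (vertical log axis) in the 19 libraries, by group (horizontal axis), with 1 point per library and a bar at the group mean. The estrus libraries (CONT) sit above all 16 mated libraries for Aqp5, Aqp8 and Aqp4 and below all of them for Aqp11, and for Aqp1 the lowest estrus library, at 74.2 CPM, is below SVX library 4 and VAS library 4.

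Aqp5, the water channel of secretory epithelia such as salivary and lacrimal glands, had the highest level of the family at estrus. It was at 146, 134 and 131 CPM in the estrus libraries. The INT libraries held 39.8, 25.7, 11.8 and 3.48 CPM. Every INT library was below the estrus libraries, and the INT libraries themselves spanned a wide range. Aqp5 was 6.79-fold lower in INT than at estrus (log2 -2.76, SE 0.72, FDR = 0.00464).

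Aqp5 was lower than at estrus in the other mated sets as well. It was at 20.4, 4.45, 6.18 and 13.3 CPM in SVX, which was 12.4-fold lower than at estrus (log2 -3.63, SE 0.74, FDR = 0.000584). SVX_VAS libraries held 3.74, 6.17, 3.41 and 18.4 CPM, 17.4-fold lower (log2 -4.12, SE 0.76, FDR = 0.000291). Library 4 was the high one of that set, and without it the log2 change was -4.94. VAS libraries held 26.8, 12.1, 13.1 and 8.0 CPM, 9.11-fold lower than at estrus (log2 -3.19, SE 0.73, FDR = 0.00151), and the log2 change without VAS libraries 2 and 3 was -2.97 (FDR = 0.0187). By group mean the order was estrus (137 ± 7.91 CPM, SD, n = 3), INT (20.2 ± 15.9, n = 4), VAS (15 ± 8.19, n = 4), SVX (11.1 ± 7.28, n = 4) and SVX_VAS (7.93 ± 7.10, n = 4), and the libraries of neighbouring mated groups overlapped.

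Aqp8, a channel for water and other small molecules known from the digestive tract, the testis and mitochondria, followed Aqp5 at a lower level. It was at 49.0, 27.4 and 35.1 CPM at estrus. INT libraries held 9.99, 4.88, 2.04 and 1.32 CPM, and none reached the estrus range. The fall in INT was 8.17-fold (log2 -3.03, SE 0.68, FDR = 0.00164), and without INT library 1, the highest of its set, the log2 change was -3.75.

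In SVX, Aqp8 was at 11.5, 2.19, 3.12 and 4.48 CPM, 6.99-fold lower than at estrus (log2 -2.80, SE 0.67, FDR = 0.00203). SVX library 1 was the high one, and without it the log2 change was -3.50. In SVX_VAS it was at 2.30, 2.81, 1.64 and 3.87 CPM, 14-fold lower (log2 -3.81, SE 0.70, FDR = 0.000289). VAS libraries held 8.96, 4.26, 5.79 and 1.54 CPM, 7.20-fold lower than at estrus (log2 -2.85, SE 0.67, FDR = 0.00192), with a log2 change of -2.80 without VAS libraries 2 and 3 (FDR = 0.0146). The group means of the mated sets ran from 2.66 ± 0.943 CPM in SVX_VAS (SD, n = 4) to 5.31 ± 4.2 CPM in SVX (n = 4), with overlapping libraries, against 37.2 ± 10.9 CPM at estrus (n = 3).

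Aqp1, the water channel of endothelium and red blood cells, was the most even of the tested members across libraries. Estrus libraries held 74.2, 95.1 and 94.8 CPM. INT libraries held 53.8, 43.8, 41.0 and 34.9 CPM, all under the estrus range. Aqp1 was 2.03-fold lower in INT than at estrus (log2 -1.02, SE 0.23, FDR = 0.00159). SVX_VAS libraries were close together at 45.2, 44.1, 44.1 and 49.0 CPM, 1.93-fold lower than at estrus (log2 -0.95, SE 0.23, FDR = 0.00228).

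SVX and VAS each held a library with an Aqp1 level inside the estrus range. SVX libraries were at 51.4, 56.1, 47.5 and 76.4 CPM, 1.52-fold lower than at estrus (log2 -0.61, SE 0.23, FDR = 0.0315). VAS libraries were at 37.1, 45.0, 53.3 and 85 CPM, 1.60-fold lower (log2 -0.68, SE 0.23, FDR = 0.0180). Both calls lie near the cutoffs. The SVX call held in 12 of the 19 fits that left out 1 library and was lost without estrus library 2 or 4, SVX library 1, 2 or 3, or VAS library 2 or 3 (log2 -0.59 to -0.52). The VAS call held in 15 of the 19 and was lost without estrus library 2 or 4 (log2 -0.62 in both) or VAS library 1 (-0.53) or 2 (-0.56), and also without VAS libraries 2 and 3 together (log2 -0.53, FDR = 0.125).

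Aqp4, a water channel best known from astrocytes and also found in epithelia, was low at estrus and lower in all 16 mated libraries. Its gene is at chr18:15389394-15403684 on the minus strand. It was at 9.04, 10.3 and 9.64 CPM in the estrus libraries. SVX libraries held 0.851, 0.313, 0.436 and 0.356 CPM, from 4 to 11 counts each. The SVX libraries lay below those of estrus with no overlap, 19.6-fold lower in the fit (log2 -4.29, SE 0.93, FDR = 0.000961). SVX_VAS libraries held 0.528, 3.69, 0.590 and 0.512 CPM, 7.18-fold lower than at estrus (log2 -2.84, SE 0.85, FDR = 0.00997). The second library of that set was the high one, and without it the log2 change was -4.14.

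The INT libraries were spread over a wide range of Aqp4, at 5.26, 2.94, 0.510 and 1.11 CPM. All were under the estrus range, and the change was not called (log2 -1.98, SE 0.83, FDR = 0.0581). VAS libraries held 1.06, 6.17, 2.76 and 0.561 CPM, and this change was not called either (log2 -1.86, SE 0.82, FDR = 0.0629). The INT change was called in 4 of the 19 fits that left out 1 library, those without INT library 1 (log2 -2.67, FDR = 0.0229), SVX_VAS library 2 (FDR = 0.0293), VAS library 2 (FDR = 0.0399) or VAS library 4 (FDR = 0.0448). The VAS change was called without SVX_VAS library 2 (FDR = 0.0325) or VAS library 2 (log2 -2.67, FDR = 0.0150), and without VAS libraries 2 and 3 together it was -3.54 (FDR = 0.00697). DESeq2 and limma-voom called Aqp4 in both comparisons (FDR 0.0420 and 0.00192 in INT, 0.0456 and 0.00186 in VAS).

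Aqp11, the intracellular member of the family whose loss gives cystic kidneys in mice, was the one tested aquaporin that rose. It was at 6.67, 8.60 and 11.4 CPM at estrus. INT libraries held 29.2, 34.3, 40.4 and 62.7 CPM, so the lowest of them was above the highest estrus library. The rise was 4.70-fold (log2 2.23, SE 0.29, FDR = 1.9e-05).

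The other mated sets had similar Aqp11 levels. SVX libraries held 35.3, 51.0, 46.1 and 41.6 CPM, 4.91-fold above estrus (log2 2.30, SE 0.29, FDR = 9.03e-06). SVX_VAS libraries held 49.4, 39.2, 55.3 and 39.8 CPM, 5.18-fold above (log2 2.37, SE 0.29, FDR = 9.33e-06). VAS libraries held 24.7, 41.3, 40.0 and 51.4 CPM, 4.44-fold above (log2 2.15, SE 0.29, FDR = 1.83e-05), with a log2 change of 2.10 without VAS libraries 2 and 3 (FDR = 0.000238). The 16 mated libraries spanned a 2.54-fold range of Aqp11, against 11.7-fold for Aqp5, 8.67-fold for Aqp8, 19.7-fold for Aqp4 and 2.43-fold for Aqp1. Group means of the mated sets lay between 39.3 ± 11 CPM in VAS and 45.9 ± 7.82 CPM in SVX_VAS (SD, n = 4 each), and all 4 sets overlapped.

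**Figure D2:**
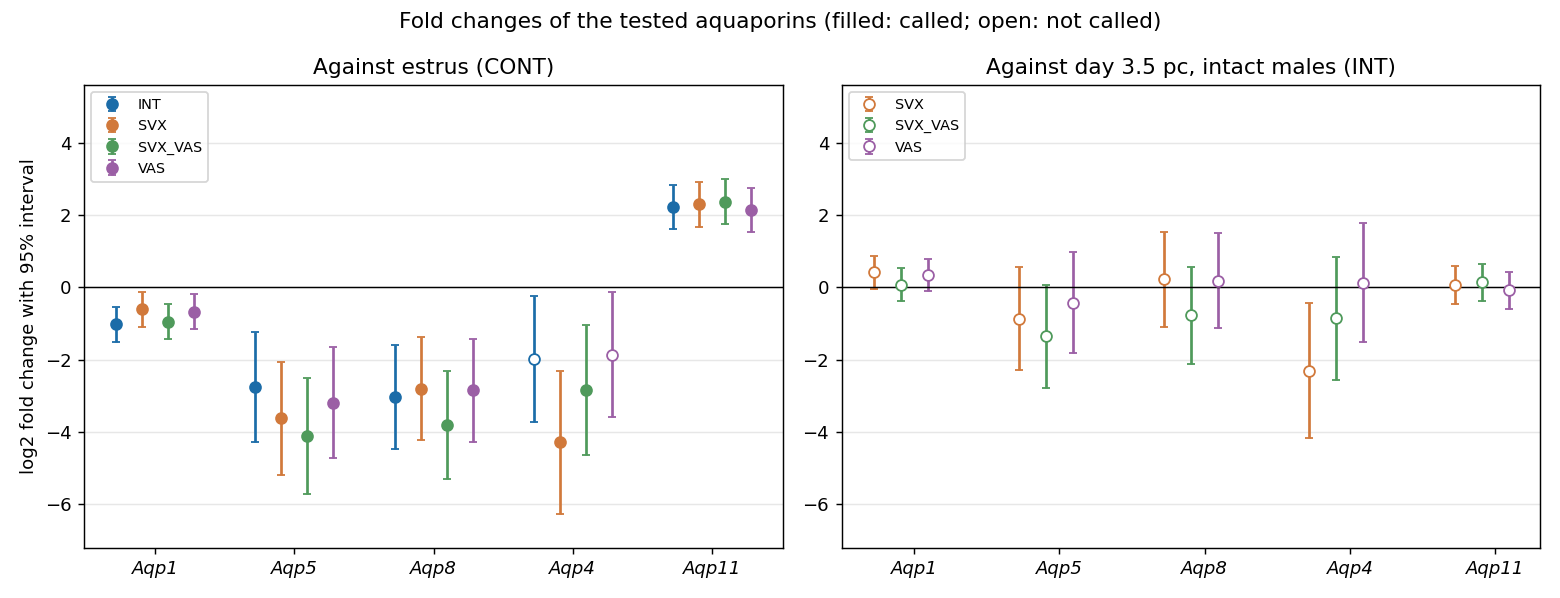
Log2 fold change with its 95% interval (vertical axis) of the 5 tested aquaporins (horizontal axis), each mated set against estrus on the left and the SVX, SVX_VAS and VAS sets against INT on the right, with filled points for called changes. On the left, Aqp11 lies above 0 and Aqp1, Aqp5 and Aqp8 below it in all 4 sets, and Aqp4 is open in INT and VAS. On the right no point is filled.

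Between the mated sets, which addresses whether the male's surgery was followed by another endometrial state, none of the 5 tested aquaporins was called in any of the 6 comparisons in edgeR. This was also so for all genes tested: 0% were called in SVX against INT, SVX_VAS against INT, VAS against INT, SVX_VAS against SVX, VAS against SVX and VAS against SVX_VAS. At an unadjusted p under 0.05 edgeR had 749, 339, 1831, 240, 2651 and 2520 genes in those comparisons, in that order. DESeq2 called 3, 2, 0, 0, 1 and 27 genes, and limma-voom called 0, 0, 1663, 0, 1656 and 1807, with no aquaporin among them. Leaving out VAS libraries 2 and 3, edgeR called 0 genes in each of the 6. Leaving out 1 library changed the count where that was a VAS library: without VAS library 1, 576 genes were called in VAS against INT, and without VAS library 4, 134 in VAS against INT, 684 in VAS against SVX and 575 in VAS against SVX_VAS, again with no aquaporin among them.

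Of the 5 tested aquaporins, only Aqp4 had an unadjusted p under 0.05 between mated sets in edgeR's fit of all 19 libraries. It was lower in SVX than in INT by 2.31 on the log2 scale (95% interval -4.18 to -0.44, unadjusted p = 0.0188, FDR = 0.9997), and by 1.62 without INT library 1. It was higher in VAS than in SVX by 2.43 (95% interval 0.57 to 4.29, unadjusted p = 0.0136, FDR = 0.304), and without VAS libraries 2 and 3 that Aqp4 difference was 0.75 (FDR = 0.808), and without VAS library 2 alone 1.59. For Aqp11 the intervals were narrow, and against INT they ran from -0.46 to 0.58 in SVX, from -0.38 to 0.66 in SVX_VAS and from -0.60 to 0.43 in VAS. For Aqp5 they were wide, from -2.28 to 0.55 in SVX, from -2.79 to 0.08 in SVX_VAS and from -1.82 to 0.97 in VAS. For Aqp8 they ran from -1.09 to 1.54 in SVX, from -2.12 to 0.56 in SVX_VAS and from -1.13 to 1.49 in VAS. For Aqp1 they ran from -0.04 to 0.87 in SVX, from -0.38 to 0.52 in SVX_VAS and from -0.11 to 0.79 in VAS. Differences of these sizes between mated sets were thus not excluded for any of the 4 genes.

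Levels of different genes were compared per kilobase of exon length. The 9 genes summed to 143 ± 6.44 CPM per kilobase at estrus (SD, n = 3) and to 37.3 ± 14 in INT, 37.1 ± 7.92 in SVX, 29.6 ± 5.18 in SVX_VAS and 38.9 ± 4.38 in VAS (n = 4 each), where libraries 1 and 4 alone held 39.6 and 44.5. No mated library, the highest at 55.6, reached the lowest estrus library at 138. At estrus Aqp5 made up 57.4% of the sum, Aqp1 23.5%, Aqp8 16.3%, Aqp4 1.34% and Aqp11 0.663%. Aqp1 had the largest mean share in each mated set, 46.8% in INT, 60.03% in SVX, 59.5% in SVX_VAS and 53.1% in VAS. Aqp5 held 28.5%, 16.8%, 14.7% and 23.4% in those sets, and Aqp11 held 14.3%, 13.1%, 17.0% and 10.8%. These shares depend on the exon lengths used, 2627 bases for Aqp1 and 9418 for Aqp11. In CPM, without division by length, Aqp1 had means of 43.4 in INT, 57.8 in SVX, 45.6 in SVX_VAS and 55.1 in VAS. The Aqp11 means in CPM were 41.7, 43.5, 45.9 and 39.3 in the same order. Aqp5 was still the largest share in INT library 1, at 42.9%, and in VAS library 1, at 40.6%.

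**Figure D3:**
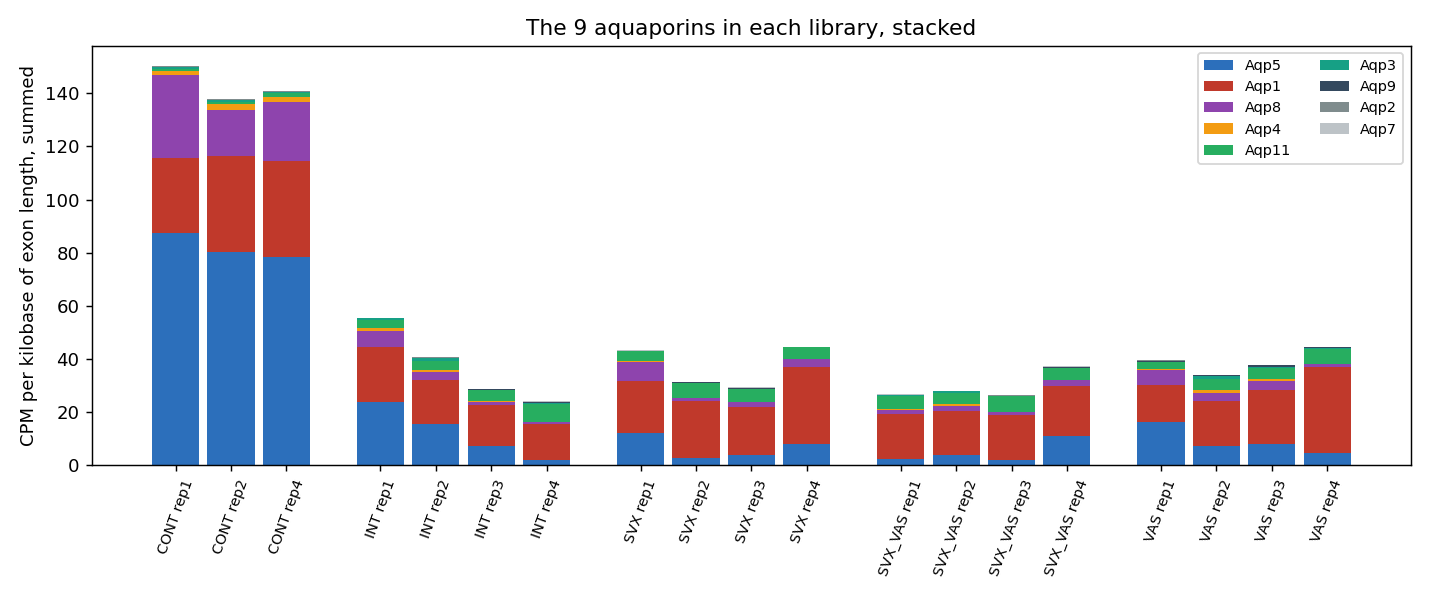
The 9 aquaporins stacked in each of the 19 libraries (horizontal axis), as CPM per kilobase of exon length (vertical axis). The estrus bars, all at 138 or more, are mostly Aqp5, and the mated bars, at 24.1 to 55.6, have Aqp1 as their largest part except in INT library 1 and VAS library 1, with a part of Aqp11 that the estrus bars hardly show.

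RNA of cell type markers also differed between estrus and the mated sets. In bulk tissue, fewer cells of a type and less RNA per cell cannot be told apart. Epithelial markers (Epcam, Cdh1, Krt8, Krt18 and Krt19) summed to 2990 to 4102 CPM at estrus and to 566 to 2114 in INT, 629 to 908 in SVX, 731 to 1690 in SVX_VAS and 408 to 1853 in VAS, and 4 of 5 were called lower in INT and 5 of 5 in the other sets, where 12.7% to 18.5% of all genes were. Without VAS libraries 2 and 3, 3 of 5 were called lower in VAS, where 14.2% of all genes were. Endothelial markers moved the other way, from 138 to 210 CPM at estrus to 558 to 848 in INT, 769 to 892 in SVX, 639 to 930 in SVX_VAS and 470 to 874 in VAS, with 6 of 6 called higher in each, where 20.9% to 23.3% of all genes were. Hemoglobin and the other red blood cell markers summed to 27.1 to 39 CPM at estrus. They summed to 54.9 to 105 CPM in the mated libraries other than VAS libraries 2 and 3, which held 32.3 and 33.4 CPM. In SVX 5 of 5 were called higher and in INT, SVX_VAS and VAS 4 of 5, where 20.9% to 23.3% of all genes were. All 5 were called higher in VAS without libraries 2 and 3, where 22.1% of all genes were. No gene of these 3 lists was at 0 in every library of a group.

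Aqp5, Aqp8 and Aqp4 were therefore also set against the epithelial sum, an addition made after the values were seen. Per 1000 CPM of epithelial markers, Aqp5 was at 34.8 to 44.7 CPM at estrus and at 4.28 to 20.8 in INT, 6.35 to 22.4 in SVX, 3.65 to 16.7 in SVX_VAS and 11.6 to 32.2 in VAS. No mated library reached the estrus range for Aqp5. Aqp8 was at 9.16 to 11.9 at estrus, and INT (1.63 to 4.73) and SVX_VAS (1.66 to 3.50) lay below that range. SVX (3.12 to 12.6) and VAS (2.24 to 14.2) overlapped the estrus range for Aqp8, each through its highest library. In VAS that was library 3, and VAS libraries 1 and 4 were below estrus at 4.84 and 2.24. Aqp4 overlapped estrus (2.20 to 3.46) in INT (0.902 to 2.49) and VAS (0.574 to 12.3) and not in SVX (0.446 to 0.938) or SVX_VAS (0.463 to 2.18). In VAS libraries 2 and 3, whose epithelial sums were the lowest of their set, lay above the estrus range of Aqp4, and libraries 1 and 4 lay below it at 0.574 and 0.814.

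Aqp1 fell while the endothelial markers rose. Per 1000 CPM of endothelial markers it was at 452 to 581 CPM at estrus and at 41.2 to 97.2 CPM in the 16 mated libraries. The ranges did not overlap in any set. Aqp11 per 1000 CPM of epithelial markers was at 1.63 to 3.03 CPM at estrus and at 13.3 to 98.0 CPM in the mated libraries, again without overlap. Its divisor was lower in every mated library than at estrus. Gland markers summed to 4.61 to 15.9 CPM at estrus and 60.9 to 520 in the mated libraries. Of these, 4 of 5 were called higher in INT, where 20.9% of all genes were. The counts were 5 of 5 in SVX, 3 of 5 in SVX_VAS and 4 of 5 in VAS, where 22.2% to 23.3% of all genes were. In VAS without libraries 2 and 3 it was 3 of 5, where 22.1% of all genes were. Stromal markers summed to 4147 to 4462 CPM at estrus and to 5470 to 7671 in the mated libraries other than VAS libraries 2 and 3, which held 1493 and 1588. Of the stromal markers, 3 of 5 were called higher in INT and 2 of 5 in VAS, where 20.9% and 23.3% of all genes were. With VAS libraries 2 and 3 left out, 4 of 5 were called higher in VAS, where 22.1% of all genes were. The part of these lists in the Aqp11 level was not tested.

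**Figure D4:**
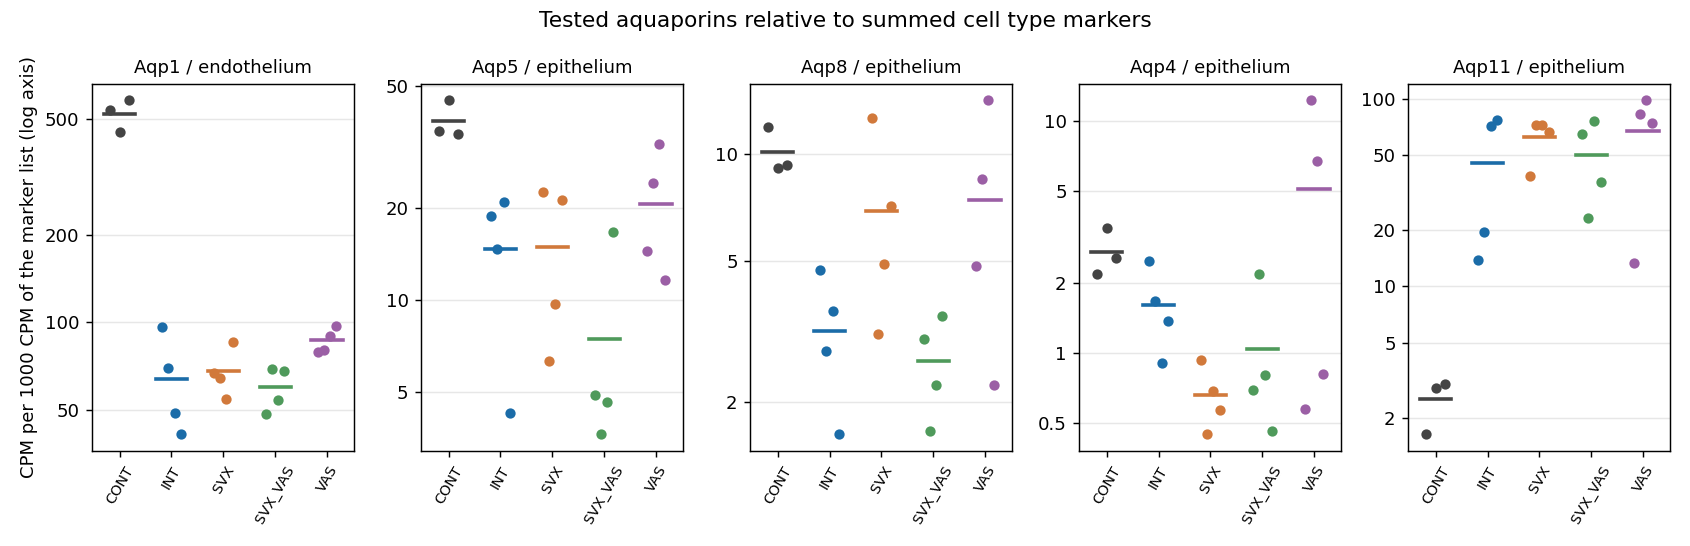
Each tested aquaporin divided by the summed markers named above its panel, as CPM per 1000 CPM of the list (vertical log axis), by group (horizontal axis), with 1 point per library and a bar at the group mean. Estrus (CONT) lies above all mated libraries for Aqp1 and Aqp5 and below them for Aqp11, and it is overlapped by SVX and VAS for Aqp8 and by INT and VAS for Aqp4. Without VAS libraries 2 and 3, VAS lies below estrus for Aqp8 and Aqp4.

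Known estrogen-induced genes (Ltf, Muc1, C3, Lcn2 and Sprr2f) varied between mated libraries of 1 set, as Aqp4 did. They summed to 9292, 11827 and 10332 CPM in the estrus libraries. INT libraries held 7955, 2793, 190 and 253 CPM, and the first 2 of these were also the 2 with the highest Aqp4 and Aqp5. In SVX_VAS the sum was 233, 8609, 233 and 990 CPM, and library 2 was the one with the highest Aqp4. Aqp5 was not high in that library, at 6.17 CPM, and was highest in library 4. SVX libraries held 191 to 562 CPM of these genes, and library 1 had the highest sum together with the highest Aqp4, Aqp5 and Aqp8 of its set. VAS libraries held 2264, 872, 469 and 187 CPM, and there library 1 had the highest Aqp5 and Aqp8 and library 2 the highest Aqp4. The part of these genes' state in the aquaporin levels was not tested.

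The 4 aquaporins under the filter were near the limit of detection. Aqp2, the vasopressin-regulated channel of the kidney collecting duct, had 10, 13 and 5 counts at estrus. INT libraries held 1, 3, 2 and 1 counts, SVX libraries 0 in all 4, SVX_VAS libraries 1, 0, 2 and 2, and VAS libraries 4, 0, 0 and 1. Estrus was the one group with every library above 4 counts. In a fit of all genes with no filter Aqp2 was called lower in SVX (FDR = 0.00181), SVX_VAS (FDR = 0.0247) and VAS (FDR = 0.0160) and not in INT (FDR = 0.0688). In that fit 7.01% of 36300 genes were called lower in INT, 11% in SVX, 9.48% in SVX_VAS and 10.8% in VAS. The Aqp2 call in VAS was lost without VAS libraries 2 and 3 (log2 -1.60, FDR = 0.103), where 7.55% of genes were called lower, and the same fit called Aqp2 lower in INT (FDR = 0.0127).

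Aqp3, a water and glycerol channel of skin and other epithelia, had 17, 34 and 12 counts at estrus. SVX was the low set, with 2, 1, 1 and 0 counts. INT libraries held 12, 25, 3 and 11 counts, SVX_VAS libraries 2, 21, 3 and 7, and VAS libraries 10, 34, 14 and 9, so these 3 sets overlapped the estrus range. In the fit of all genes with no filter Aqp3 was called lower in SVX (log2 -3.71, FDR = 0.00327) and in no other set.

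Aqp9, a channel for glycerol and other solutes known from liver and white blood cells, had 3, 19 and 9 counts at estrus. VAS libraries held 26, 39, 58 and 20 counts, each above the estrus libraries. INT libraries held 12, 15, 17 and 26, SVX libraries 7, 21, 21 and 12, and SVX_VAS libraries 20, 19, 14 and 16. Aqp9 was called higher in VAS with no filter (log2 1.77, FDR = 0.00488), and in INT the log2 change was 1.12 (FDR = 0.0803). In that fit 14.6% of genes were called higher in VAS. Without VAS libraries 2 and 3, which hold the highest counts, the Aqp9 change in VAS was 1.44 (FDR = 0.0271, with 13.6% of genes called higher), and Aqp9 was then also called in INT (FDR = 0.0461) and SVX (FDR = 0.0478). With no filter and all 19 libraries, 12.6% of genes were called higher in INT and 14.3% in SVX. Among white blood cell markers, those of macrophages summed to 126 to 222 CPM at estrus, 245 to 326 in VAS and 277 to 417 in the other mated sets, with 3 of 5 called higher and 1 (Cd68) lower in VAS, where 23.3% and 17.3% of all genes were. The neutrophil markers S100a8 and S100a9 were highest in VAS libraries 2 and 3, while the neutrophil marker Ly6g was lower in VAS than at estrus (log2 -2.62, FDR = 0.00922). The remaining neutrophil markers, Ngp (2, 4, 0 and 6 counts in VAS) and Camp (5, 2, 0 and 6), were not highest in those libraries. Their part in Aqp9 was not tested. Aqp7, the glycerol channel of fat, had 0 to 7 counts in any library and was called in no set. Of the other family members Mip, the lens channel, had 0 to 10 counts, Aqp12 0 or 1, and Aqp6 0 in all 19 libraries.

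**Figure D5:**
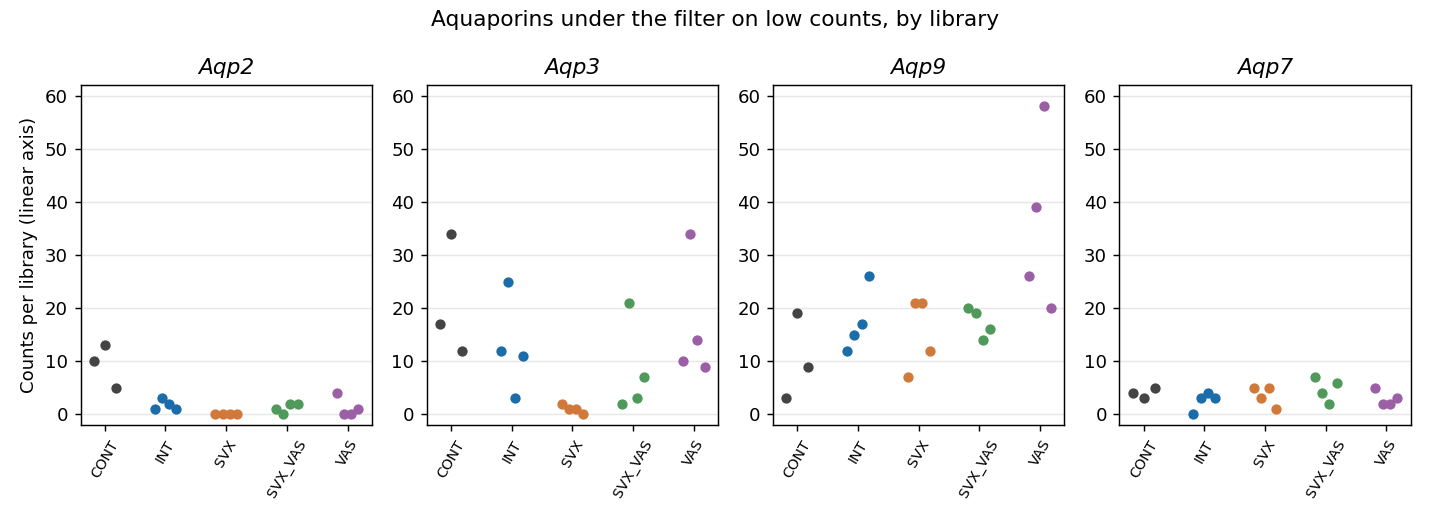
Raw counts (vertical axis) of the 4 aquaporins under the filter in the 19 libraries, by group (horizontal axis), with 1 point per library. Aqp2 is above 4 counts at estrus alone, Aqp3 is at 0 to 2 counts in SVX, Aqp9 is highest in VAS at 20 to 58 counts and Aqp7 is at 7 counts or fewer throughout.

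The genes whose pattern over the 19 libraries was most like that of each tested aquaporin were found by the root mean square difference of centred log2 CPM. They are a description, and nothing about shared function follows from it. For Aqp5 the 3 nearest were Greb1, a gene known to be induced by estrogen, with a difference of 0.44, Dbpht2 with 0.50 and Gm30414 with 0.52, where Aqp5 itself had an SD of 1.68. For Aqp8 they were C4bp and Greb1 with 0.53 each and Gm30414 with 0.56. Greb1 and Gm30414 were thus near both. Aqp4 was nearest to Slc27a2 (0.47), H2-Q2 (0.50) and Ppm1j (0.51), with an SD of 1.60. Aqp1, with an SD of 0.43, was nearest to Mcee and Smco4 (0.26 each) and Svopl (0.28). Aqp11, with an SD of 0.88, was nearest to Tsku (0.14), Egflam (0.16) and Fah (0.18).

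Other genes of fluid and solute transport were counted from lists. Of 17 epithelial ion and fluid transport genes, 15 were tested, and 4 were called higher and 4 lower in INT than at estrus, with a median log2 change of -0.44 against -0.01 over all genes. These shares stand beside 20.9% of all genes called higher and 12.7% lower. Among the called genes, Ano1, a chloride channel, had the largest rise (log2 2.23, FDR = 6.22e-06) and Car12, a carbonic anhydrase, the largest fall (log2 -2.14, FDR = 0.00520), while the chloride channel Cftr was not called (log2 -2.30, FDR = 0.169). In SVX 5 of these genes were called higher and 8 lower, in SVX_VAS 5 and 6, and in VAS 5 and 7. Among all genes, 22.2% to 23.3% were called higher and 16.5% to 18.5% lower in these sets. In VAS without libraries 2 and 3 it was 4 higher and 6 lower, where 22.1% and 14.2% of all genes were called. Ano1 rose and Car12 fell in SVX, SVX_VAS and VAS too.

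Of the 10 tested glycerol handling genes, 1 was called higher and 6 lower in INT, with a median of -1.04, where 20.9% of all genes were higher and 12.7% lower. Lpl, the lipase that releases fatty acids from blood lipids, rose (log2 0.99, FDR = 0.00195) and Gpd1l, an enzyme of glycerol 3-phosphate, fell by the most among the called genes (log2 -1.50, FDR = 9.07e-05). In SVX 1 gene was called higher and 8 lower, and in SVX_VAS and VAS 1 higher and 7 lower (1 and 6 in VAS without libraries 2 and 3). In these 3 sets 22.2% to 23.3% of all genes were called higher and 16.5% to 18.5% lower, and without the 2 VAS libraries 22.1% and 14.2%. Of 8 tested genes whose proteins bind, anchor or regulate aquaporins, 1 was called higher and 2 lower in INT, with a median of -0.18, beside the same shares of all genes. Akap7, an anchor of protein kinase A, rose (log2 0.91, FDR = 0.000726), and Ezr, which links membrane proteins to actin, fell (log2 -1.14, FDR = 0.00932). In SVX 1 of them was called higher and 3 lower, and in SVX_VAS and VAS 1 higher and 2 lower (1 and 1 in VAS without libraries 2 and 3), beside those same shares of all genes. In the fit of all 19 libraries edgeR called no gene of the 3 lists between mated sets, as it called 0 of all genes there.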

How the data were processed

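Endometrial RNA of 19 pooled samples in 5 groups was analysed. The authors prepared libraries with TruSeq Stranded total RNA kits, sequenced both ends, trimmed adapters, aligned to GRCm38 with STAR, counted reads per gene with featureCounts and deposited raw counts, without normalization. The strand setting of the counting is not given in the sources used here. The members and gene lists were chosen with earlier results of these data known. Groups follow the sample codes. Genes that reached 3 CPM in 3 or more libraries were tested in R 4.3.3 with edgeR 4.0.16 (TMM, glmQLFit, glmQLFTest, all groups in one fit), with Benjamini-Hochberg FDR of 0.05 and a logFC of 0.583 as cutoffs. Log2 CPM used a prior count of 2. The fit was tested on simulated data: in the simulated INT against CONT comparison of 17222 genes, 56 of 100 changes of 2-fold and 87 of 100 of 4-fold were found, with 2 false calls. All 9 members are named, with the 3 most similar genes of each tested member and the called genes with the largest and smallest INT change of each list. Alternatives were DESeq2 1.42.0, limma-voom (limma 3.58.1), other scalings and filters, only the 2 groups compared, a replicate block and each library left out. Leaving out VAS libraries 2 and 3, with and without the filter, and levels relative to marker sums, were added after the data were seen. Positions come from the counts and GENCODE M21, and promoters from RefSeq. The proteins were not analysed here. Figures were drawn with Python 3.11.15.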

Additional observations from a re-analysis of the deposited data

Results flagged for a closer look

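Aqp4 stood out in SVX_VAS library 2, where it was at 1.93 log2 CPM against -0.66 to -0.49 in the other 3 libraries of its set. That gap is larger than Dixon's 95% critical value for 4 libraries allows. It was 1 such value in 20 groups searched (5 genes in 4 sets of 4 libraries), and chance gives about 1. The same library held 8609 CPM of the estrogen-induced genes against 233 to 990 in the others, and the part of this in the Aqp4 level was not tested.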

How the results depend on the processing

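The number of aquaporins called kept within 1.5 times of its value in 288 of 290 refits (10 comparisons under 29 alternatives). The exceptions were the fit with no filter that left out VAS libraries 2 and 3, where 7 were called in INT and 8 in SVX against 4 and 5. With no filter and all 19 libraries, 12.6% of all genes were called higher and 7.01% lower in INT. In SVX these shares were 14.3% and 11%. Of 522 refitted log2 changes of called aquaporins, 505 stayed called, 0 changed direction and 17 were no longer called, all 17 of them Aqp1 in SVX or VAS. Aqp5, Aqp8 and Aqp11 were called against estrus in 29 of 29 alternatives in each mated set. Upper quartile scaling moved the median of all genes against estrus by 0.13 in INT, 0.17 in SVX, 0.15 in SVX_VAS and 0.20 in VAS, and under it Aqp1 was at -0.43 in SVX (FDR = 0.114) and -0.48 in VAS (FDR = 0.0824), not called. With only the 2 groups compared, Aqp1 was at -0.58 in SVX, under the 1.5-fold cutoff, and at an FDR of 0.0967 in VAS. Aqp4 was called in INT under 10 and in VAS under 7 of 29 alternatives (FDR 0.00192 to 0.140 in INT).

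The main fit did not treat samples as paired by replicate number. Of 36 same-numbered pairs, 15 had a correlation over 0.1, with a range from -0.69 to 0.58. Pairs with different numbers were not compared, so these values cannot decide whether the numbers mark a pairing. With a replicate block 5606 genes were called in INT against estrus (5791 without it), and Aqp4 was called in INT (log2 -2.15, FDR = 0.0318) and VAS (log2 -2.08, FDR = 0.0415). No other aquaporin's call changed with it. Depth limits Aqp2, Aqp3, Aqp7 and Aqp9, whose 0 to 58 counts per library leave wide counting error.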
